A study of Arabidopsis thaliana with 14 samples.

Results

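The first nucleosomes downstream of the transcription start site (TSS) of FLOWERING LOCUS C (FLC) in Arabidopsis thaliana, called +1 and +2, were described from every MNase-protected DNA fragment whose midpoint lay 60 to 379 bp downstream of the TSS. Distances are counted from the TSS at base 3179448 of chromosome 5 (TAIR10, minus strand), and the midpoints covered bases 3179069 to 3179388. Midpoints from 60 to 219 bp were taken as the +1 window and midpoints from 220 to 379 bp as the +2 window. The windows held 44595 of the 1039765 fragment records listed for FLC over 14 libraries, 22621 of them in the +1 window and 21974 in the +2 window. A record is 1 distinct fragment, with its own start and end, in 1 library. Over all libraries these records came from 8927 distinct fragments, of which 275 were listed in all 14 libraries and 2431 in 1 library.

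The study asked how cold and the protein VRN1 change nucleosome arrangement at FLC, and all plants carried an active FRIGIDA (FRI) allele brought into Col-0, which keeps FLC expressed before cold. WT FRI and the vrn1-4 FRI mutant were compared as seedlings kept at 22 °C (warm; 3 libraries of each genotype) and after 1 week at 5 °C (1W cold; 4 libraries of each genotype). All seedlings were first grown for 10 days at 22 °C, with 16 h of light and 8 h of dark. The cold week came after these 10 days, so age and cold cannot be told apart. Each library came from pooled whole seedlings labelled as a biological replicate, so a value averages over all cell types. Fragments of 100 to 150 bp were rebuilt from read pairs after capture with baits, and each value is the fragment's frequency among all FLC fragments of its library. A share is therefore relative to the rest of FLC, and absolute occupancy cannot be read from it. Read depth is not given with the shares.

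A nucleosome is DNA wrapped around a core of histone proteins. Micrococcal nuclease (MNase) cuts the DNA between and at the edges of nucleosomes, so fragment ends are taken as the borders of protected DNA. The +1 nucleosome stands next to the start site and is met first by RNA polymerase. FLC encodes a MADS-box repressor of flowering that is silenced by Polycomb during prolonged cold, and silencing starts from nucleosomes at the 5′ end of the gene. VRN1 is a DNA-binding protein with B3 domains that vernalisation requires.

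In the RefSeq annotation exon 1 runs from the TSS to +293, with the 5′ UTR to +108 and coding sequence from +109, and intron 1 starts at +294. The +1 window thus covers the end of the 5′ UTR and the first codons, and the +2 window covers the end of exon 1 and its border with intron 1. An annotated antisense gene overlaps the same bases, and DNA fragments do not distinguish the strands. The sequences below are shown because many of the fragment ends described in the results fall inside them. They are on the gene strand, from the RefSeq TAIR10.1 assembly, in which all 237 FLC baits of the capture design were found exactly. Capitals mark the outermost protected base of the ends at +164, +212, +213, +216, +218, +225, +228, +265, +302, +333, +334, +340, +353, +355, +361, +368, +370 and +371. Other ends named in the text are in lower case where they fall inside the sequences. Named ends nearer the TSS than +109 lie outside them.
Coding part of the +1 window, chr5:3179230-3179339, +109 to +218: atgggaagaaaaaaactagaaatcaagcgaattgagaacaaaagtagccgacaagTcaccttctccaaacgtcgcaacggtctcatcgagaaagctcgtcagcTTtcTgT
Protected stretch of the +2 window, chr5:3179077-3179232, +216 to +371: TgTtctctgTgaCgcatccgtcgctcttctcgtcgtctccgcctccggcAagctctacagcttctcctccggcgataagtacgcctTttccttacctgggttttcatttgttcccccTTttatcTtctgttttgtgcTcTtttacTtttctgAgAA

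The cuts that the comparisons below turn on are given with 10 bases on each side, the protected bases in capitals. A TSS-side end is the border of a fragment nearer the start site, and a gene-body-side end is the other border.
TSS-side end at +225, chr5:3179214-3179233: ctgttctctgTGACGCATCC
TSS-side end at +228, chr5:3179211-3179230: ttctctgtgaCGCATCCGTC
TSS-side end at +164, chr5:3179275-3179294: agccgacaagTCACCTTCTC
Gene-body-side end at +265, chr5:3179173-3179192: GCCTCCGGCAagctctacag
Gene-body-side end at +302, chr5:3179136-3179155: AGTACGCCTTttccttacct
Gene-body-side end at +333, chr5:3179105-3179124: TGTTCCCCCTtttatcttct
The outermost protected base of a TSS-side end was A or T in 84.0% ± 3.395 of the windows' fragments (SD, n = 14 libraries), and the base just outside in 52.2% ± 5.37. At gene-body-side ends the figures were 90.2% ± 1.85 inside and 70.4% ± 2.01 outside. The reference stretches that these ends span hold 53.6% and 57.0% A or T, so the ends were not spread evenly over bases. How far the place of a single end reflects the bases at the cut was not tested. The end at +228 has C as its first protected base, unlike the end 3 bases before it.

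The libraries differed in how many distinct FLC fragments they list, from 14166 in WT FRI warm replicate 2 to 124173. The smallest listed frequency ran from 8.73e-05% in WT FRI 1W cold replicate 1 to 0.00209% in WT FRI warm replicate 2. A rare fragment may therefore be missing from the sparser libraries. In the profile over FLC (459 bins of 20 bp), WT FRI 1W cold replicate 1 had a mean correlation of 0.920 with the other WT FRI 1W cold libraries and 0.933 with the vrn1-4 FRI 1W cold libraries, bins being shared positions and not replicates. In vrn1-4 FRI 1W cold replicate 4 the +1 window peaked at +200, and in the other 13 libraries between +145 and +148. Values without these libraries are given where leaving them out changed a call or moved a count by over 1.5 times.

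Averaged over all 14 libraries, midpoints in the +1 window were most frequent at +148 (base 3179300) and those in the +2 window at +291 (base 3179157). In single libraries the +2 peak lay between +284 and +293. Midpoints within 10 bp of the peak made up 36.6% ± 7.63 of the +1 window and 50.5% ± 11.3 of the +2 window (SD, n = 14), so in the +1 window most fragments lay at other positions. Group means of the +1 share near its peak ran from 34.2% to 40.1%, and those of the +2 share from 42.0% to 61.1%. None of the 4 comparisons of either share passed, with an exact p of at least 0.114. Without WT FRI 1W cold replicate 1 the +2 share near its peak passed between cold genotypes, with vrn1-4 FRI lower (-19.4 percentage points, exact permutation test, adjusted p = 0.0381; -14.1 with it, adjusted p = 0.131).

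**Figure D1:**
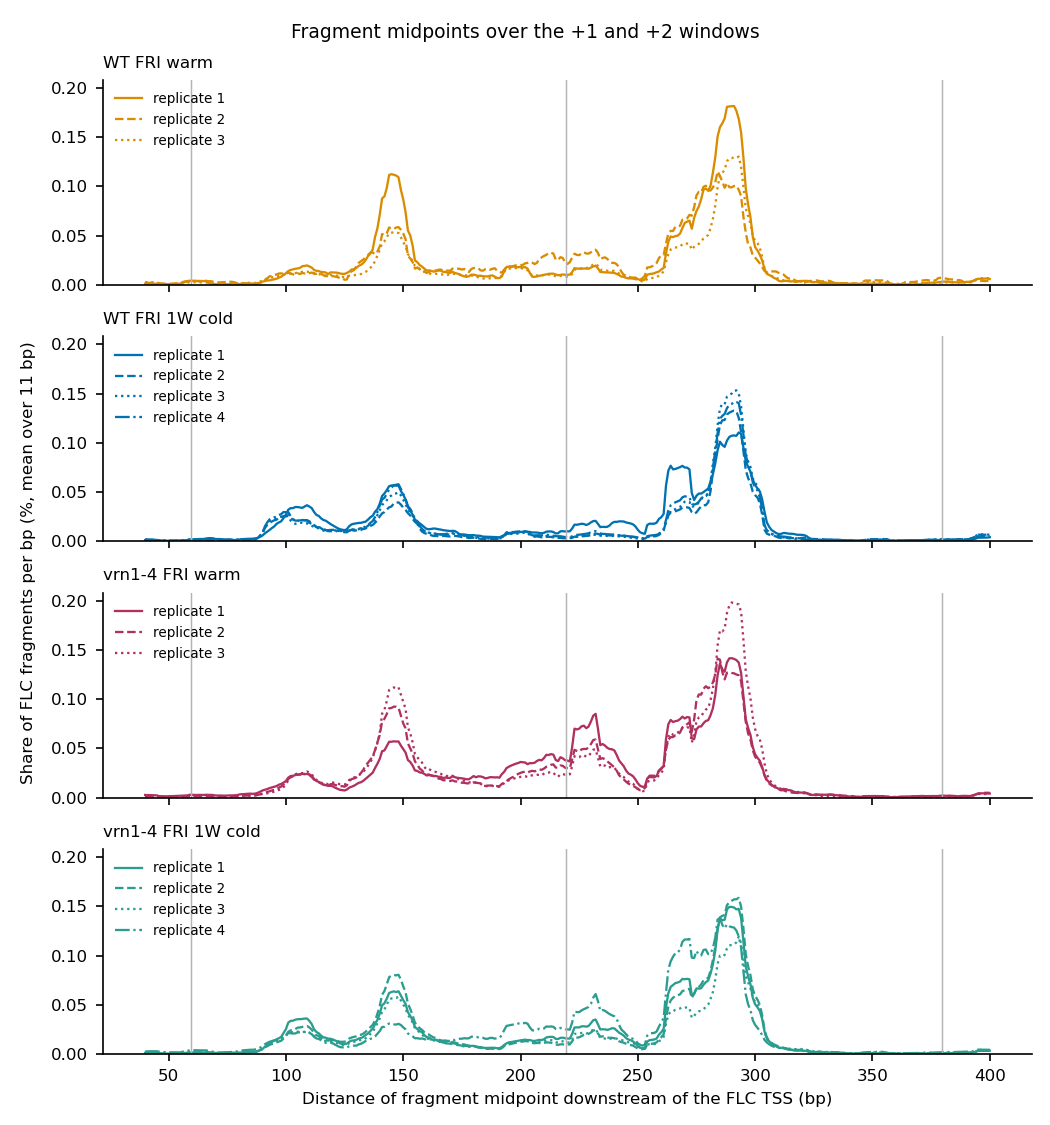
Share of FLC fragments per bp (%, mean over 11 bp) by the distance of the fragment midpoint from the TSS in bp, 1 panel for each group and 1 line for each library; grey lines mark the window borders. The peaks at +148 and +291 stand in all groups, and the stretch from 180 to 259 bp between them is highest in vrn1-4 FRI warm, with a mean of 2.37% against 1.20% in WT FRI warm.

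The +1 window held 2.99%, 2.71% and 1.995% of FLC fragments in the WT FRI warm libraries and 2.48%, 1.73%, 1.87% and 2.10% after 1 week of cold. In vrn1-4 FRI it held 3.44%, 3.58% and 3.79% in the warm and 2.70%, 2.76%, 2.32% and 2.57% in the cold. The WT FRI groups overlap, and every warm vrn1-4 FRI library lies above every other library. The cold minus warm difference was -1.02 percentage points in vrn1-4 FRI (exact permutation test, two-sided, p = 0.0286, the smallest that 3 against 4 libraries allow; adjusted p = 0.114) and -0.52 in WT FRI (exact p = 0.171; adjusted p = 0.229). The vrn1-4 FRI minus WT FRI difference was 1.04 in the warm (exact p = 0.1, the smallest for 3 against 3; adjusted p = 0.4) and 0.54 in the cold (exact p = 0.0571; adjusted p = 0.0762). Adjusted p-values are Benjamini-Hochberg values over the 8 measures of each comparison, and single values were called at an adjusted p under 0.05, which none reached.

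The +2 window held 4.70%, 4.39% and 3.53% in WT FRI warm and 4.09%, 3.06%, 3.50% and 3.47% in WT FRI 1W cold. The vrn1-4 FRI libraries held 5.79%, 5.30% and 5.96% in the warm and 4.80%, 4.58%, 3.62% and 5.58% in the cold. The genotypes did not overlap in the warm, with a difference of 1.48 percentage points (exact p = 0.1; adjusted p = 0.4), and overlapped in the cold (1.11; exact p = 0.0571; adjusted p = 0.0762). When each distinct fragment was counted once regardless of its frequency, the difference in the warm was 0.298 percentage points for the +1 window and 0.00719 for the +2 window. Libraries list from 14166 to 124173 distinct FLC fragments, so this setting gives weight to rare fragments that only some libraries list. With WT FRI 1W cold replicate 1 left out, the difference in the cold was 0.69 for the +1 window (adjusted p = 0.0381) and 1.30 for the +2 window (adjusted p = 0.0653).

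Within the +1 window, the share of fragments with midpoints from 60 to 119 bp (TSS-near) was 14.5%, 15.1% and 18.7% in WT FRI warm and 33.5%, 35.8%, 31.4% and 31.9% in WT FRI 1W cold. The vrn1-4 FRI libraries had 17.5%, 14.7% and 14.1% in the warm and 27.9%, 22.0%, 24.2% and 24.0% in the cold. In this share of the +1 window the warm and cold libraries did not overlap in either genotype, and all cold vrn1-4 FRI libraries lay below all cold WT FRI libraries. The mean was 16.1% ± 2.30 (SD, n = 3) against 33.1% ± 1.97 (n = 4) in WT FRI, and 15.5% ± 1.80 against 24.5% ± 2.46 in vrn1-4 FRI. The exact p was 0.0286 in each genotype, the smallest possible, with adjusted p = 0.0571 in WT FRI and 0.114 in vrn1-4 FRI. Between genotypes the difference was -0.63 percentage points before cold (exact p = 0.6; adjusted p = 0.8) and -8.63 in the cold (exact p = 0.0286; adjusted p = 0.0571). The cold response of vrn1-4 FRI was 8.00 points smaller than that of WT FRI, or -8.00 as vrn1-4 FRI minus WT FRI (permutation of genotype labels within temperature over all 1400 arrangements, p = 0.0371; adjusted p = 0.111 over 3 measures). Without WT FRI 1W cold replicate 1 the difference between cold genotypes was -8.52 (adjusted p = 0.0381), and without vrn1-4 FRI 1W cold replicate 4 it was -8.45 (adjusted p = 0.0571). Measured against all of FLC instead, TSS-near midpoints overlapped between cold genotypes: WT FRI spanned 0.588% to 0.830%, vrn1-4 FRI 0.560% to 0.753%. Before cold, WT FRI spanned 0.374% to 0.433%, wholly below vrn1-4 FRI with 0.527% to 0.603%. On this scale warm and cold libraries overlapped for vrn1-4 FRI but not for WT FRI. These shares of FLC were not tested.

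**Figure D2:**
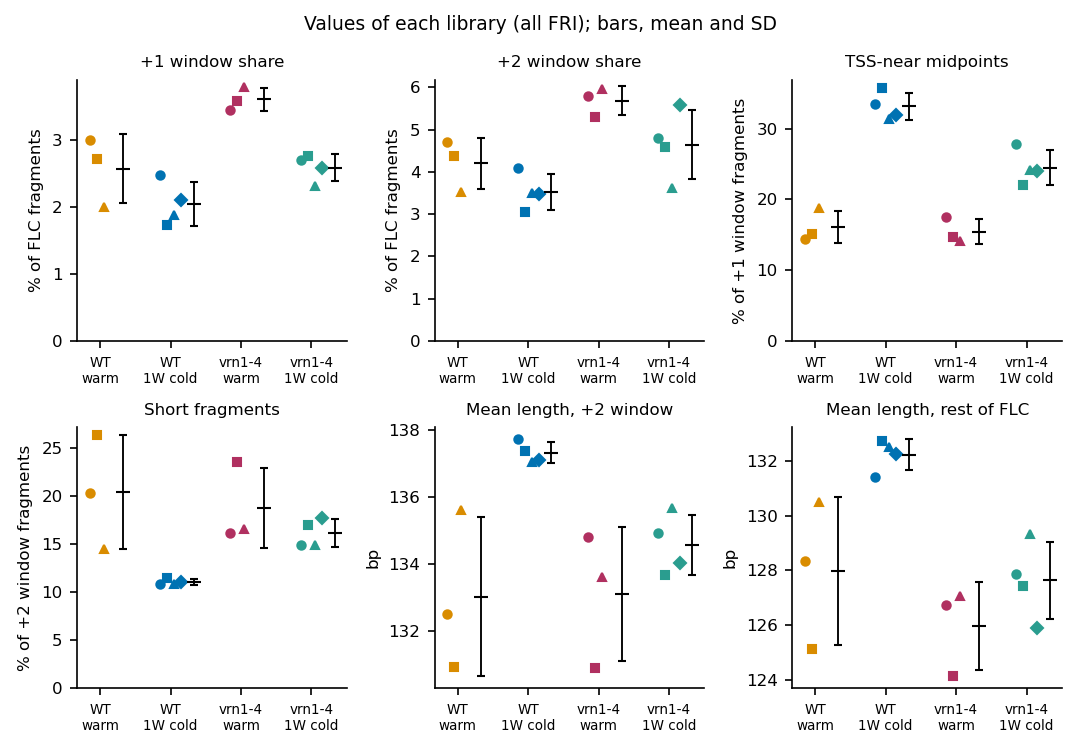
Values of each library, in panels for the share of FLC fragments (%) in each window, the TSS-near share of the +1 window (%), the share of short fragments in the +2 window (%) and the mean fragment length (bp) in the +2 window and in the rest of FLC; points are libraries, bars are the mean and SD of the group, and the 2 length axes do not start at 0. The TSS-near shares of the WT FRI 1W cold libraries, from 31.4% to 35.8%, lie above those of all other groups.

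Alternative positions were then compared in bins of 20 bp over the whole of FLC, with limma on the log2 of the share plus 0.00005, so that changes of low bins are understated. All 16 bins of the windows passed the filter, among 459 bins tested. In WT FRI the cold changed 1 of the 16 bins (6.25%), against 1.09% of all bins tested. This was the bin from 80 to 99 bp, which rose by 1.27 on the log2 scale (SE 0.22, limma adjusted p = 0.00731). It held 0.0752%, 0.107% and 0.105% of FLC fragments in WT FRI warm and 0.178%, 0.241%, 0.253% and 0.279% in WT FRI 1W cold, with no overlap. In vrn1-4 FRI the same bin held 0.157%, 0.105% and 0.0831% in the warm and 0.161%, 0.135%, 0.142% and 0.189% in the cold. None of the 16 bins, and 0% of all bins, passed for the cold in vrn1-4 FRI by limma, and 59 of all bins and 4 of the 16 had an unadjusted p under 0.05. The difference of the 2 cold responses called 0% of all bins (28 bins, 1 of them in the windows, had an unadjusted p under 0.05), so the genotypes' responses were not shown to differ in any bin. The 16 bins had a median change of -0.55 in WT FRI and of -0.40 in vrn1-4 FRI, against 0.03 and 0.12 over all bins.

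The genotypes differed at midpoints between the +1 and +2 peaks. In the warm 3 of the 16 bins passed (18.8%, against 25.9% of all bins), of which 2 were higher in vrn1-4 FRI, where 5.66% of all bins were higher. Those were the bins from 200 to 219 bp (log2 difference 1.14, limma adjusted p = 0.041) and from 220 to 239 bp (1.28, adjusted p = 0.0337), while the bin from 360 to 379 bp was lower (-0.83, adjusted p = 0.0417). In the cold 5 of the 16 bins passed (31.2%, against 26.4% of all bins), of which 4 were higher in vrn1-4 FRI, where 8.28% of all bins were higher. The 4 adjoin each other from 160 to 239 bp, with log2 differences of 0.84, 0.87, 1.35 and 1.66 in order of distance, and limma adjusted p-values of 0.0102, 0.0364, 0.0111 and 0.00658. The bin from 80 to 99 bp was lower in vrn1-4 FRI in the cold (-0.58, adjusted p = 0.0478). The share of bins that differed is near that of FLC as a whole in both comparisons, so a difference of some kind is not particular to these windows.

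The bin from 220 to 239 bp shows the libraries behind these calls. It held 0.312%, 0.606% and 0.329% of FLC fragments in WT FRI warm and 1.30%, 0.903% and 0.771% in vrn1-4 FRI warm, and these did not overlap. In the cold it held 0.333%, 0.119%, 0.108% and 0.148% in WT FRI and 0.550%, 0.364%, 0.387% and 0.905% in vrn1-4 FRI, where WT FRI 1W cold replicate 1 stands above the rest of its group. Without that library 6 bins of the windows passed for the cold in WT FRI, 7 for the genotypes in the warm and 8 in the cold. Of the other libraries, the count for the cold in WT FRI was 0 without WT FRI warm replicate 1 and 5 without WT FRI warm replicate 3. The count for the genotypes in the warm was 0 without vrn1-4 FRI warm replicate 2 and 1 without WT FRI warm replicate 3, vrn1-4 FRI warm replicate 1 or WT FRI 1W cold replicate 4. Without WT FRI warm replicate 1 or 3 or vrn1-4 FRI warm replicate 1, 0 of the bins called in the warm were higher in vrn1-4 FRI. The bins from 200 to 219 bp and from 220 to 239 bp lost their call in the warm without any of these libraries or vrn1-4 FRI warm replicate 2. Their direction was kept. Between genotypes in the cold the count was 3 without WT FRI 1W cold replicate 2, 3 or 4 or vrn1-4 FRI 1W cold replicate 1. Without vrn1-4 FRI 1W cold replicate 4 the counts were 7, 5 and 4, and the bin from 180 to 199 bp lost its call (log2 difference 0.53, adjusted p = 0.083). When each distinct fragment was counted once, no bin of the windows passed in any comparison, and with bins of 40 bp the counts were 2, 0 and 2. Counting once depends on how many rare fragments each library lists, which differed between libraries.

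**Figure D3:**
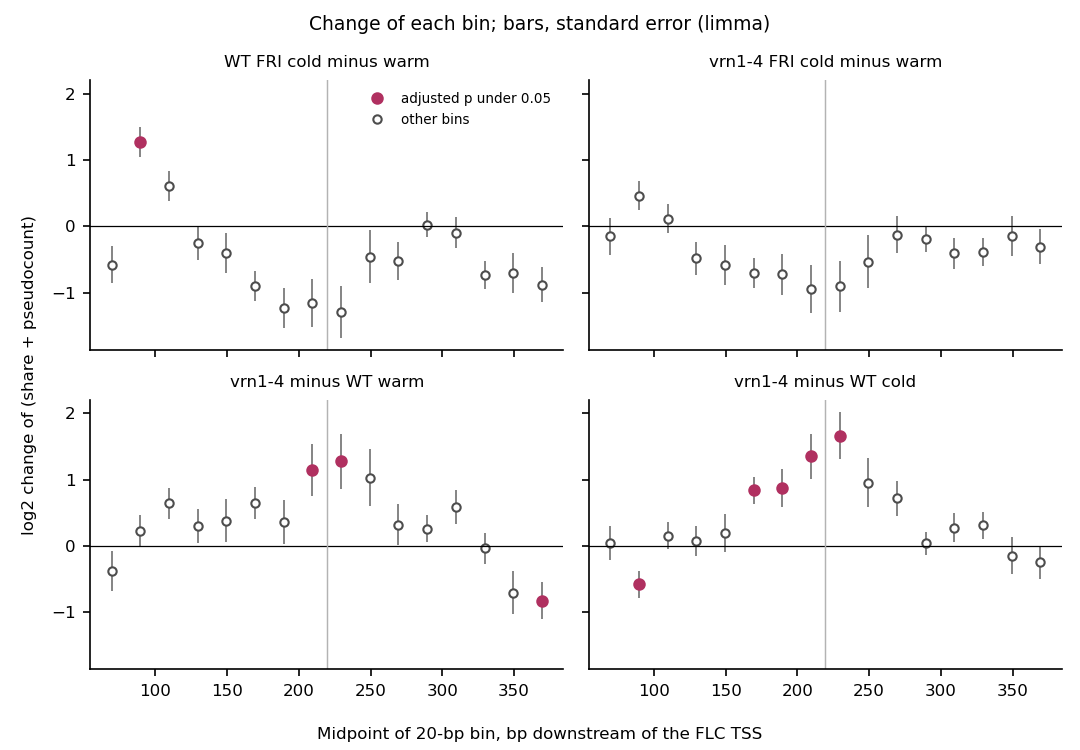
Log2 difference (share of FLC fragments plus 0.00005) of each of the 16 bins of 20 bp, by distance from the TSS in bp, for the 4 comparisons; filled points passed a limma adjusted p of 0.05 and bars are the SE. The bins from 160 to 239 bp are higher in vrn1-4 FRI in the cold, and the bin from 80 to 99 bp is higher after cold in WT FRI (1.27).

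Single fragments give the positions to the base. Of the 8927 distinct fragments, 115 passed the filter of a mean share of 0.01% over the 14 libraries, and these held 35.2% to 50.6% of the windows' frequency in each library. The most frequent +1 fragment ran from +79 to +218 (140 bp), and the others among the 4 most frequent ran from +80 to +218, +79 to +212 and +79 to +213. It made up 0.129%, 0.0648% and 0.0295% of FLC fragments in WT FRI warm and 0.0301%, 0.0393%, 0.0436% and 0.0436% in WT FRI 1W cold. The vrn1-4 FRI shares were 0.0357%, 0.0492% and 0.0812% in the warm and 0.0383%, 0.0411%, 0.0372% and 0.0184% in the cold. The groups overlap, and no comparison of this fragment passed (limma adjusted p of at least 0.340). The 4 most frequent +2 fragments ran from +195 to +340 (146 bp), +216 to +361 (146 bp), +225 to +355 (131 bp) and +225 to +361 (137 bp), and none of them passed in any comparison (limma adjusted p of at least 0.287). The fragment from +195 to +340 is centred on the TSS side of the +2 peak, and it made up 0.0989%, 0.0982% and 0.0720% in WT FRI warm, 0.201%, 0.0625%, 0.0526% and 0.0752% in WT FRI 1W cold, 0.193%, 0.114% and 0.130% in vrn1-4 FRI warm and 0.152%, 0.108%, 0.0876% and 0.219% in vrn1-4 FRI 1W cold. Its highest values are in the 2 libraries that stand apart.

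In WT FRI the cold changed 7 of the 115 fragments (6.09%, against 4.44% of all 1080 fragments tested), of which 5 fell, where 2.59% of all fragments fell. The +1 fragment from +26 to +166 (141 bp, centred at +96) rose by 1.71 on the log2 scale (SE 0.47, limma adjusted p = 0.0485). It made up 0.00490%, 0.0230% and 0.00558% in WT FRI warm, 0.0150%, 0.0356%, 0.0504% and 0.0473% in WT FRI 1W cold. WT FRI warm replicate 2 lies among the cold libraries here. In vrn1-4 FRI it made up 0.00503%, 0.00323% and 0.00357% in the warm and 0.0130%, 0.0138%, 0.0127% and 0.0116% in the cold, without overlap (log2 difference 1.32, limma adjusted p = 0.793). The difference of the 2 cold responses was -0.39 (limma adjusted p = 0.871), so the responses were not shown to differ. The +1 fragment from +79 to +213 (135 bp) fell by 1.81 (SE 0.46, adjusted p = 0.0485). Among +2 fragments, the one from +225 to +333 (109 bp) fell by 1.59 (SE 0.39, adjusted p = 0.0474), from 0.137%, 0.105% and 0.0739% to 0.0206%, 0.0320%, 0.0417% and 0.0408%, without overlap. These calls lie just under the threshold, and the count of 7 became 0 when any of 10 libraries was left out, 1 without WT FRI warm replicate 2, 22 without WT FRI warm replicate 3 and 19 without WT FRI 1W cold replicate 1. In vrn1-4 FRI no fragment of the windows and 0% of all fragments passed by limma, while 52 of all and 13 of the 115 had an unadjusted p under 0.05.

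Between genotypes 13 of the 115 fragments passed in the warm (11.3%, and 11.3% of all fragments) and 11 in the cold (9.57%, against 13.1%). All 13 were higher in vrn1-4 FRI in the warm, where 7.22% of all fragments were higher, and 10 in the cold (8.7%, and 8.7% of all fragments). The named ones lie in the +2 window and start 3 bases inside the border at +225, or close to it. The fragment from +228 to +355 (128 bp) made up 0.00572%, 0.00836% and 0.00984% in WT FRI warm and 0.0255%, 0.0374% and 0.0553% in vrn1-4 FRI warm, without overlap (log2 difference 2.01, limma adjusted p = 0.0158). In the cold it made up 0.0103%, 0.00257%, 0.00482% and 0.00240% in WT FRI and 0.0253%, 0.0256%, 0.0150% and 0.0131% in vrn1-4 FRI, again without overlap (1.71, adjusted p = 0.0198). The fragment from +228 to +333 (106 bp) was higher by 2.28 in the warm (adjusted p = 0.0221) and 2.14 in the cold (adjusted p = 0.0198). The fragment from +223 to +353 (131 bp) was higher in the warm (2.15, limma adjusted p = 0.0158). It made up 0.00817%, 0% and 0.00689% in WT FRI warm and 0.0233%, 0.0218% and 0.0242% in vrn1-4 FRI warm. The fragments from +219 to +333 (115 bp) and +225 to +333 were higher in the cold (1.68 and 1.44, limma adjusted p = 0.0198 and 0.0248). The filter used the mean over all 14 libraries, so a fragment can have passed it only through the group where it is high. The fragment from +228 to +355 averaged 0.00797% in WT FRI warm and 0.00502% in WT FRI 1W cold, under the filter of 0.01%. How far this set the calls was not tested. The 13 fragments of the warm became 1, 0 and 0 without vrn1-4 FRI warm replicate 1, 2 and 3, 20 without WT FRI warm replicate 3, 7 and 8 without vrn1-4 FRI 1W cold replicate 1 and 2, and 24 without WT FRI 1W cold replicate 1. The 11 of the cold became 0 without WT FRI 1W cold replicate 2, 3 or 4 or vrn1-4 FRI 1W cold replicate 1 or 4, 4 without vrn1-4 FRI 1W cold replicate 2, 7 without vrn1-4 FRI warm replicate 3, 27 without WT FRI warm replicate 2 and 33 without WT FRI 1W cold replicate 1.

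Fragment ends pool all fragments that share a border. An end was assigned to the windows if most of its mean use came from fragments of the windows. Of the 634 such end positions, 67 passed the filter of a mean share of 0.05%, among 877 ends tested over FLC. The share of an end counts all FLC fragments with that end, also those with midpoints outside the windows. The most used TSS-side ends were at +225, +216 and +79, and the most used gene-body-side ends at +340, +361 and +333. The border at +225 was used by 1.41%, 0.798% and 0.750% of FLC fragments in WT FRI warm, 0.401%, 0.708%, 0.974% and 0.879% in WT FRI 1W cold, 0.635%, 0.786% and 0.974% in vrn1-4 FRI warm and 0.811%, 0.966%, 0.621% and 0.754% in vrn1-4 FRI 1W cold. All 4 groups overlap at this border, the most used of the +2 nucleosome, and no comparison passed (limma adjusted p of at least 0.398).

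The border 3 bases farther in, at +228, differed between genotypes. It was used by 0.0965%, 0.0773% and 0.0935% in WT FRI warm and 0.265%, 0.415% and 0.457% in vrn1-4 FRI warm, a log2 difference of 1.998 (SE 0.52, limma adjusted p = 0.0178) without overlap. In the cold it was used by 0.221%, 0.0217%, 0.0364% and 0.0587% in WT FRI and 0.244%, 0.222%, 0.165% and 0.127% in vrn1-4 FRI, where WT FRI replicate 1 lies among the mutant libraries (1.58, SE 0.45, adjusted p = 0.0192). In all, 14 of the 67 ends passed in the warm (20.9%, against 19.4% of all ends) and 19 in the cold (28.4%, against 23.8%). All of them were higher in vrn1-4 FRI, where 12.5% of all ends in the warm and 17.8% in the cold were higher. The 67 ends had median log2 differences of 0.48 (warm) and 0.51 (cold), against 0.16 and 0.18 over all ends.

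The ends with the smallest p in the cold lie inside the usual borders of the +1 and +2 fragments. In all 4 groups the top fragment at +164 ran to +312 (149 bp, 10.7% to 20.5% of that end). The top fragment at +302 ran from +154 (149 bp, 29.7% to 34.9%). The midpoints of both fragments lie between the +1 and +2 peaks. At +265 the top fragment ran from +153 or +154 (113 or 112 bp). The TSS-side end at +164 was used by 0.0450%, 0.117% and 0.0517% in WT FRI warm and 0.0298%, 0.00992%, 0.0118% and 0.0133% in WT FRI 1W cold, a fall of 1.81 (SE 0.40, limma adjusted p = 0.0265). In vrn1-4 FRI it was used by 0.185%, 0.164% and 0.104% in the warm and 0.0786%, 0.0480%, 0.0455% and 0.146% in the cold, which is higher than in cold WT FRI by 1.93 (SE 0.37, adjusted p = 0.00505). The cold vrn1-4 FRI libraries thus lie above all cold WT FRI libraries at this end. The gene-body-side end at +302, a few bases into intron 1, was used by 0.0654%, 0.113% and 0.0704% in WT FRI warm and 0.0427%, 0.0187%, 0.0200% and 0.0297% in WT FRI 1W cold. In vrn1-4 FRI it was used by 0.237%, 0.186% and 0.139% in the warm and 0.0965%, 0.0717%, 0.0751% and 0.234% in the cold. It fell in the cold in WT FRI (-1.44, limma adjusted p = 0.0488) and was higher in vrn1-4 FRI in the warm (1.14, adjusted p = 0.0465) and in the cold (1.81, adjusted p = 0.00505).

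The gene-body-side end at +265, in the coding part of exon 1, fell in the cold in WT FRI (-1.66, limma adjusted p = 0.0265) and was higher in vrn1-4 FRI in the cold by 1.68 (adjusted p = 0.00505). The end at +333 was used by 0.292%, 0.121%, 0.140% and 0.132% in WT FRI 1W cold and 0.437%, 0.382%, 0.302% and 0.570% in vrn1-4 FRI 1W cold, without overlap (1.34, adjusted p = 0.00828). The genotype differences in the cold at +164, +265, +302 and +333 passed under all 17 alternative settings. The fall in the cold in WT FRI passed under 12 of the 17 at +164 and at +265 and under 5 at +302, and the difference in the warm at +302 under 6. The 14 ends that passed in the warm were TSS-side ends at +42, +43, +89, +134, +154, +170, +200, +228 and +232 and gene-body-side ends at +265, +269, +301, +302 and +353, so they lie across both windows. Of these, the ends at +154, +301 and +353 were singled out after their values were seen, as the most used of those not named by the rule. At +154 the share was 0.113%, 0.242% and 0.116% in WT FRI warm against 0.570%, 0.383% and 0.339% in vrn1-4 FRI warm (log2 difference 1.48, limma adjusted p = 0.0387).

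For the cold in WT FRI 3 of the 67 ends passed (4.48%, against 1.82% of all ends), at +164, +265 and +302, and all fell, where 1.6% of all ends fell. In vrn1-4 FRI no end of the windows and 0% of all ends passed by limma, with 79 of all and 13 of the 67 at an unadjusted p under 0.05. The difference of the cold responses at +164 was 0.82 (limma adjusted p = 0.820), so the responses were not shown to differ there. Without WT FRI 1W cold replicate 1 the counts of ends were 28 for the cold in WT FRI, 23 for the genotypes in the warm and 31 in the cold, and without vrn1-4 FRI 1W cold replicate 4 they were 16, 16 and 11. The 3 ends of the cold in WT FRI became 0 without WT FRI warm replicate 1 or 2 or WT FRI 1W cold replicate 2, 3 or 4, and 19 without WT FRI warm replicate 3. The 14 of the warm became 3 without WT FRI warm replicate 1, 8 without WT FRI warm replicate 3, and 2, 3 and 0 without vrn1-4 FRI warm replicate 1, 2 and 3. The 19 of the cold became 8 and 10 without WT FRI 1W cold replicate 2 and 3, and 10 without vrn1-4 FRI 1W cold replicate 1.

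**Figure D4:**
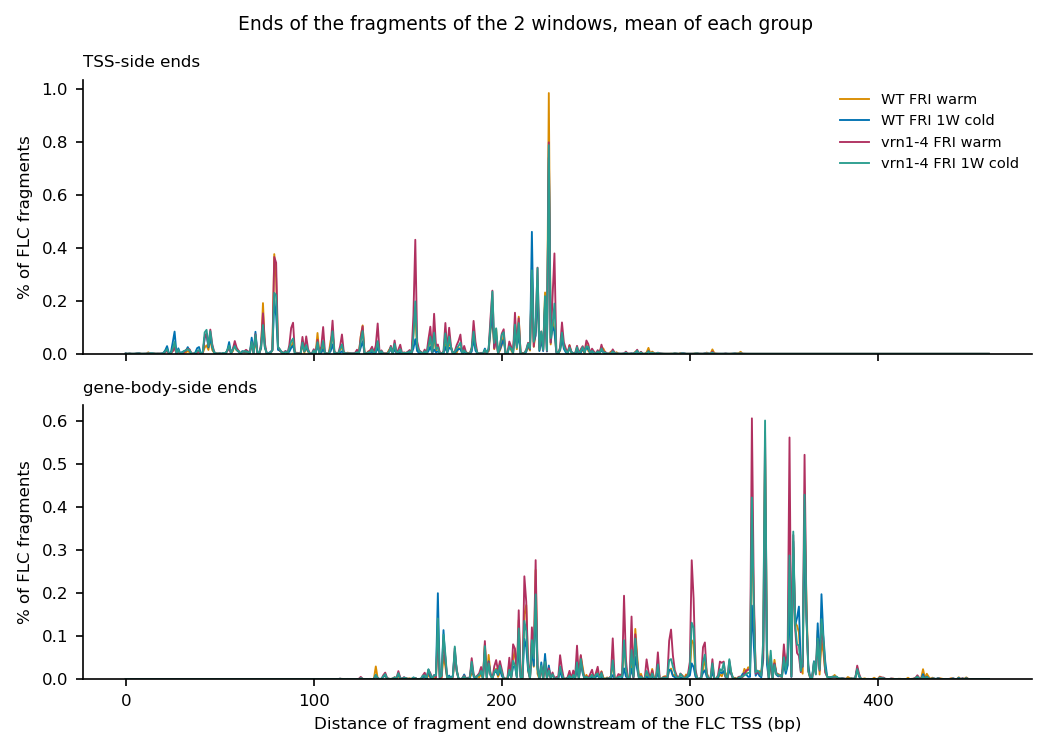
Share of FLC fragments (%) with a midpoint in the windows and an end at each base, by distance from the TSS in bp. TSS-side ends are above and gene-body-side ends below, as the mean of each group. The tallest TSS-side end in all 4 groups is the border at +225, and among gene-body-side ends the one at +333 is tallest in vrn1-4 FRI warm.

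Fragments that begin at the common +2 border at +225 stopped at a set of preferred gene-body-side ends. Over all libraries they used 50 distinct gene-body-side ends, and 8 of these, at +333, +334, +353, +355, +361, +368, +370 and +371, held 55.2% to 73.6% of them in each library. The corresponding lengths are 109, 110, 129, 131, 137, 144, 146 and 147 bp. These steps were picked after their values were seen and are described without a test.

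In WT FRI the warm and cold libraries did not overlap at 3 of the 8 steps, those of 109, 110 and 146 bp. Overlap was not counted over the other gene-body-side ends of these fragments, so the 3 steps have no background share beside them. The step of 146 bp took 2.85%, 3.93% and 10.7% of these fragments in WT FRI warm and 16.2%, 16.9%, 16.8% and 13.6% in WT FRI 1W cold. The step of 109 bp took 9.77%, 13.1% and 9.85% in WT FRI warm and 5.14%, 4.52%, 4.28% and 4.64% in WT FRI 1W cold. In vrn1-4 FRI the step of 109 bp took 12.1%, 15.1% and 11.7% in the warm and 10.5%, 10.4%, 10.6% and 17.1% in the cold, so cold mutant libraries overlap the warm ones. The step of 146 bp took 6.73%, 4.48% and 7.70% in vrn1-4 FRI warm and 8.26%, 8.18%, 14.4% and 3.23% in the cold. The step of 129 bp took 16.2%, 17.0% and 16.5% in vrn1-4 FRI warm against 7.04%, 10.5% and 4.78% in WT FRI warm. Short fragments, defined below, were also rarer outside the windows after cold in WT FRI (mean 24.2%) than before it (mean 33.6%). The part of that locus-wide change in these steps was not tested.

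**Figure D5:**
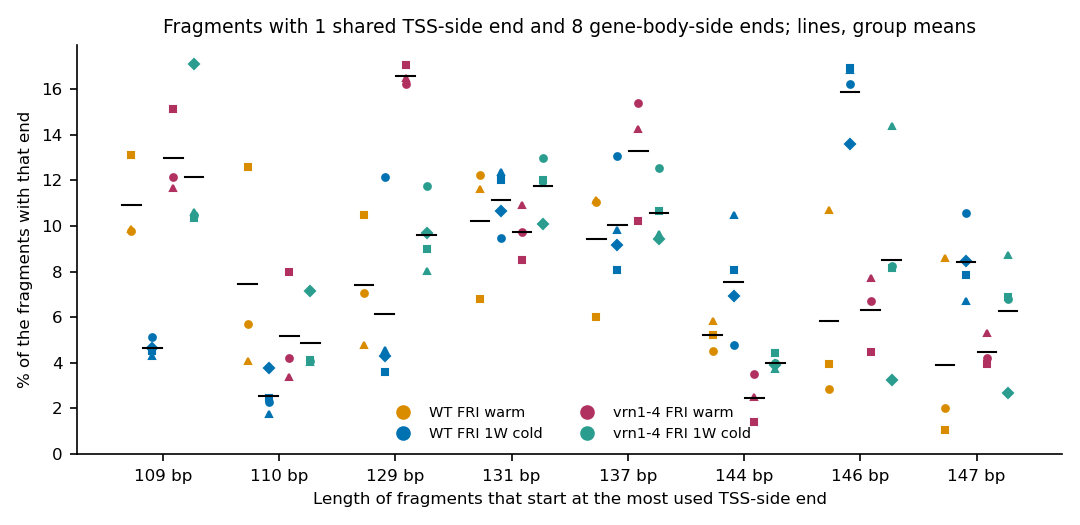
Share (%) of the fragments starting at +225 that stop at each of the 8 preferred gene-body-side ends, by fragment length in bp; points are libraries and black lines are group means. In WT FRI 1W cold the step of 146 bp holds 13.6% to 16.9% and the step of 109 bp 4.28% to 5.14%.

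The lengths of all fragments in the windows were then compared with those of FLC outside them. In the +2 window the mean length was 132.5, 130.9 and 135.6 bp in WT FRI warm and 137.7, 137.4, 137.0 and 137.1 bp in WT FRI 1W cold. The vrn1-4 FRI means were 134.8, 130.9 and 133.6 bp in the warm and 134.9, 133.7, 135.6 and 134.0 bp in the cold. The WT FRI 1W cold libraries lie above all others and within 1 bp of each other. In WT FRI the cold minus warm difference was 4.29 bp in the +2 window and 4.52 bp in the +1 window, each with exact p = 0.0286 and adjusted p = 0.0571. In vrn1-4 FRI it was 1.46 bp (exact p = 0.2) and 2.24 bp (exact p = 0.114). In the cold vrn1-4 FRI fragments were shorter than WT FRI fragments by 2.74 and 3.98 bp (written as differences, -2.74 and -3.98; exact p = 0.0286 and adjusted p = 0.0571 for each). Without WT FRI 1W cold replicate 1 they were -2.61 and -4.44 (exact permutation test, adjusted p = 0.0381 for each).

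Short fragments of 100 to 119 bp made up 20.4% ± 5.92 of the +2 window in WT FRI warm (SD, n = 3), 11.1% ± 0.286 in WT FRI 1W cold (n = 4), 18.7% ± 4.11 in vrn1-4 FRI warm and 16.1% ± 1.45 in vrn1-4 FRI 1W cold. The difference between cold and warm WT FRI was -9.34 percentage points (exact p = 0.0286; adjusted p = 0.0571), and between cold genotypes 5.06 (exact p = 0.0286; adjusted p = 0.0571), or 4.99 without WT FRI 1W cold replicate 1 (adjusted p = 0.0381). The genotypes' cold responses differed by 6.73 points (permutation of genotype labels, p = 0.129; adjusted p = 0.193). Outside the windows short fragments became rarer as well, with WT FRI means of 33.6% before and 24.2% after cold, without overlap. The vrn1-4 FRI means there were 37.6% before and 33.8% after cold, so the cold genotypes also differed outside the windows. Whether the +2 values go beyond this locus-wide difference was not tested.

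Fragment length moved in the rest of FLC as well. Outside the windows the mean was 128.3, 125.1 and 130.5 bp in WT FRI warm, 131.4, 132.7, 132.5 and 132.2 bp in WT FRI 1W cold, 126.7, 124.1 and 127.1 bp in vrn1-4 FRI warm and 127.9, 127.4, 129.3 and 125.9 bp in vrn1-4 FRI 1W cold. The part of this locus-wide length in the short-fragment results was not tested. For length, the excess of each window over the rest of FLC was compared, as given next. Fragments in the windows were longer than in the rest of FLC in 14 of 14 libraries, by 2.02 bp in the +1 window (SD 0.555) and 6.04 bp in the +2 window (SD 1.25). The exact sign-flip permutation test over libraries gave p = 0.00012 for each, the smallest that 14 libraries allow. Between warm and cold WT FRI the excess changed by 0.05 bp in the +2 window (exact permutation test, p = 0.943). In the +1 window it changed by 0.28 bp (exact permutation test, p = 0.6). The lengths themselves differed there by 4.29 and 4.52 bp. In vrn1-4 FRI the +2 excess was larger than in WT FRI by 2.09 bp in the warm, without overlap (exact p = 0.1, adjusted p = 0.2), and by 1.85 bp in the cold (exact p = 0.0571, adjusted p = 0.114).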

How the data were processed

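Targeted MNase-seq fragments of FLC were analysed in 14 libraries, grouped by genotype and temperature from the sample labels. According to the methods and the submitters' processing notes, the authors cleaned reads with fastp, aligned them with Bowtie2 to TAIR10, used SAMtools 1.5, removed low-quality reads, joined read pairs into fragments and kept lengths of 100 to 150 bp; duplicate removal is not given in the sources used here. The deposited values are a fraction, the frequency of each fragment among the FLC fragments of its library, summing to 1 per library. They carry no counts. Depth is not stated and was not derived from the smallest listed frequency of each library, and no counting interval was computed. Baits were captured in 1 pooled reaction.

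Shares were summed over windows, 20-bp bins, single fragments and ends. Bins, fragments and ends over all of FLC were tested with limma 3.58.1 in R 4.3.3 on log2(share + pseudocount), with pseudocounts of 0.00005 for bins and ends and 0.00002 for fragments and minimum mean shares of 0.0001 for bins and fragments and 0.0005 for ends, in 1 fit of 4 group means with Benjamini-Hochberg adjustment over all features tested. A fold on this scale understates the change of low features. Single values were tested with two-sided exact permutation tests on group means. Python 3.11.15 was used for the rest. The bin test was tested on simulated data: of 40 bins changed by 1 on the log2 scale among 459 in the WT FRI cold comparison, 77.5% were recovered over 20 sets, with 4.02% of calls false. Replicates are labelled biological, but whether they were grown on separate occasions is not stated.

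The windows, lists and tests were chosen with earlier results of these data known. Named fragments are the 4 most frequent of each window by the mean of the group means, plus for each comparison the 3 with the smallest p past an adjusted p of 0.05; named ends are the 3 most used of each side, plus for each comparison the 2 with the smallest p past it. Alternatives were other pseudocounts and filters, bins of 40 bp, borders moved by 10 bp, lengths of 120 to 150 bp, each distinct fragment counted once, a replicate block, and each library left out. Same-numbered libraries deviated together (r over 0.1) in no comparison for all pairs (r from -0.396 to 0.669), so the numbers were not taken as pairs.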

Additional observations from a re-analysis of the deposited data

Results flagged for a closer look

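Of 102 groups of 4 libraries looked at, 10 held a library far from its 3 fellows, by a threshold that about 1 in 20 independent groups pass by chance. The groups here are not independent, since bins, fragments and ends come from the same libraries. In WT FRI 1W cold replicate 1 stood above the other 3 at midpoints from 100 to 119 bp (0.607% of FLC fragments against 0.308% to 0.353%) and from 240 to 259 bp (0.390% against 0.0974% to 0.116%). It stood above them too in the fragment from +195 to +340 (0.201% against 0.0526% to 0.0752%) and the fragment from +228 to +333 (0.0164% against 0.000735% to 0.00338%). The same library was the highest at the ends at +333 (0.292% against 0.121% to 0.140%), +164 (0.0298% against 0.00992% to 0.0133%) and +89 (0.0568% against 0.0205% to 0.0244%). In vrn1-4 FRI 1W cold replicate 4 stood above the other 3 at midpoints from 60 to 79 bp (0.0593% against 0.0275% to 0.0286%), at midpoints from 180 to 199 bp (0.465% against 0.159% to 0.186%) and at the end at +302 (0.234% against 0.0717% to 0.0965%).

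For the TSS-near share of the +1 window the difference of the 2 cold responses had an unadjusted p under 0.05 and did not pass the adjustment: the response of vrn1-4 FRI minus that of WT FRI was -8.00 percentage points (permutation of genotype labels within temperature, p = 0.0371; adjusted p = 0.111 over 3 measures).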

How the results depend on the processing

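Under the other settings tried, 633 of 838 values for named bins, fragments, ends and secondary measures kept their direction and side of the threshold, 173 lost a call, 8 gained one, 23 changed direction and 1 moved. Counting each distinct fragment once gave vrn1-4 FRI minus WT FRI differences in the warm of 0.298 for the +1 share and 0.00719 for the +2 share, and lengths of 120 to 150 bp gave 2.25 for the +2 share. Borders moved 10 bp towards the TSS turned the TSS-near difference in the warm to 0.102.

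For the cold in WT FRI, the bins called were 3 with a pseudocount of 0.0002, 2 with bins of 40 bp, 0 with distinct fragments and 7 with a replicate block; the fragments 15 with a filter of 0.00005 and 14 with the block; the ends 9 with a pseudocount of 0.0002, 5 with a filter of 0.0002 and 22 with the block. For the genotypes in the warm, bins were 5 (pseudocount 0.0002), 0 (bins of 40 bp) and 0 (distinct fragments), fragments 29 and ends 31 (filters). In the cold, bins were 2 (bins of 40 bp) and 0 (distinct fragments), fragments 19 and ends 36 (filters). The block changed no other count by over 1.5 times, and none passed for the cold in vrn1-4 FRI.

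Leaving out 1 library at a time gave ranges for the counts. Bins ranged from 0 to 7 for the cold in WT FRI, from 0 to 7 between genotypes in the warm and from 3 to 8 in the cold. Fragments ranged from 0 to 22, from 0 to 24 and from 0 to 33, and ends from 0 to 28, from 0 to 23 and from 8 to 31. The TSS-near difference between genotypes ranged from -1.66 to 0.683 in the warm, from -9.76 to -7.76 in the cold, and the difference of the cold responses from -9.31 to -6.98. In the cold the +1 share differed by 0.437 to 0.686 and the +2 share by 0.801 to 1.46. The +1 peak share ranged from -8.06 to 1.92 for the cold in WT FRI, from -7.16 to 2.70 for the cold in vrn1-4 FRI, and from -8.57 to 1.41 and from -5.61 to 2.20 between genotypes in the warm and the cold. Between genotypes in the warm the +2 length ranged from -0.956 to 1.38 bp and the short share from -4.61 to 1.30.

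Reversed values were these. With lengths of 120 to 150 bp, the excess of length over the rest was -0.251 bp in the +1 window and -0.226 bp in the +2 window for the cold in WT FRI, -0.446 and -0.0532 bp in the +1 window between genotypes in the warm and the cold, and the +2 length between genotypes in the warm was -0.350 bp. That last value was -0.251 and -0.0802 bp with borders moved away from and towards the TSS, and -1.31 bp with distinct fragments. With distinct fragments the short share between genotypes in the warm was 2.47, the +2 peak share for the cold in vrn1-4 FRI -0.146, and the bin from 80 to 99 bp between cold genotypes 0.11. The +1 peak share for the cold in vrn1-4 FRI was 2.70 with the replicate block. The cause was not tested.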
